A study of Mus musculus with 3 samples.

Results

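Dazl, Ddx4, Sycp1, Hormad1, Mael and Stk31 are genes of the germ line, and their promoters were examined here in the DNA of mouse frontal cortex. The members were the tiled regions of a DNA methylation array that lay nearest to the start of each gene, within 15 kb, on mouse build mm9 (NCBI37). The 6 starts used, given to the nearest 1 kb, were chr17 at 50.433 Mb for Dazl, chr13 at 113.44 Mb for Ddx4, chr3 at 102.74 Mb for Sycp1, chr3 at 95.363 Mb for Hormad1, chr1 at 168.169 Mb for Mael and chr6 at 49.345 Mb for Stk31. They were not read from the array files, and because they are rounded, every distance from a start below is approximate. A probe near a given start may lie on the other side of the true start. A tiled region is a run of 3 or more probes in which each start follows the previous one by no more than 500 bp. A region was found for all 6 genes, of 28880 regions in all, and together they held 92 of 409597 placed probes. For Dazl, Sycp1, Hormad1 and Mael the region lay over the given start, and for Stk31 it began 6 bp downstream of it. For Ddx4 no tiled region covered the given start. The nearest one lay 2.32 kb upstream, and whether it includes the promoter was not settled here, so it is described as the region upstream of Ddx4.

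The study asked how methylation at transcription start sites relates to binding of the TATA-binding protein. It comprised 3 arrays of 1 group, each of a DNA pool from 3 untreated male C57BL/6 mice aged 2 months, and there was no second condition. Methylated DNA was captured with an antibody against 5-methylcytosine described as not binding hydroxymethylated DNA, and on each array the captured (bound) DNA in Cy5 was compared with the input DNA in Cy3, always in that orientation, so that a dye effect and enrichment cannot be told apart. The titles number the arrays 1 to 3, whereas every description gives replicate number 1; the titles were followed, and if arrays shared a pool the p-values would cover only the spread between arrays. Frontal cortex is a mixture of neurons, glia and vascular cells, and a value is an average over them. RNA was not measured on these arrays, so the silence of the genes in this tissue was not examined.

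As background, methylation of cytosine in CpG dinucleotides of a promoter is associated with stable silencing. CpG-rich promoters are mostly unmethylated in all tissues, and a set of germline genes is known as an exception, since their CpG-rich promoters become methylated in the early embryo and remain so in somatic cells, while germ cells lack this methylation and express the genes. Repressive complexes that contain E2F6, or MGA with MAX, which binds the sequence CACGTG, are known to act on many such promoters.

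The promoter sequences are shown for the 5 genes with a tiled region at the given start, because the antibody binds methylated CpGs. All 6 genes matched the RefSeq promoter table (build GRCm38.p6, not the array's build), which gives 250 bases before and 50 from the transcription start onward. For Hormad1 and Stk31, with 2 entries each, the more upstream entry was taken. Capitals mark CpG dinucleotides, and each sequence runs 5′ to 3′ along the gene.
Dazl (chr17:50293571-50293870, minus strand): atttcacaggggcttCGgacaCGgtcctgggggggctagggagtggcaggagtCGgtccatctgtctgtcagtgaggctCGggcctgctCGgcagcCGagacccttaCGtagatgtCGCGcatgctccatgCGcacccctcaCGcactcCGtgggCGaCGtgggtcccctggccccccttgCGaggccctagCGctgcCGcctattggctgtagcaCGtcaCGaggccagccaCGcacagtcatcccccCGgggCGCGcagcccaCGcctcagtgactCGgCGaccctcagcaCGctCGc
Sycp1 (chr3:102936051-102936350, minus strand): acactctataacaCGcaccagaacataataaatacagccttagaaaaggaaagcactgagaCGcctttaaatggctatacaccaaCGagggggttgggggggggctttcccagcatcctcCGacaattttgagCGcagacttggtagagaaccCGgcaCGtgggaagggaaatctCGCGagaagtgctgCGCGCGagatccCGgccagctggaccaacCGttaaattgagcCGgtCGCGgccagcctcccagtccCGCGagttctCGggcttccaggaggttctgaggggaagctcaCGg
Hormad1 (chr3:95559427-95559726, plus strand): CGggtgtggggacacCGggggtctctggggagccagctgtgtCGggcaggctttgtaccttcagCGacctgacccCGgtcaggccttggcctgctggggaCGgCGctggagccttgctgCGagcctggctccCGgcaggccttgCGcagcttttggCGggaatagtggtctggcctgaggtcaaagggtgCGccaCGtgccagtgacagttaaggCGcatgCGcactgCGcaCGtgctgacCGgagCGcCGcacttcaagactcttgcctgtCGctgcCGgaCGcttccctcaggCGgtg
Mael (chr1:166238695-166238994, minus strand): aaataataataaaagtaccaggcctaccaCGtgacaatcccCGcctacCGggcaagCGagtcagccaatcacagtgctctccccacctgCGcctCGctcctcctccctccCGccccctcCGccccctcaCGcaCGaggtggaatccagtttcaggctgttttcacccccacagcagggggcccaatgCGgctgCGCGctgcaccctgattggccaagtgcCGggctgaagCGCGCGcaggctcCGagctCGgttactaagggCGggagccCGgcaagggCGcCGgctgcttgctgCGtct
Stk31 (chr6:49395289-49395588, plus strand): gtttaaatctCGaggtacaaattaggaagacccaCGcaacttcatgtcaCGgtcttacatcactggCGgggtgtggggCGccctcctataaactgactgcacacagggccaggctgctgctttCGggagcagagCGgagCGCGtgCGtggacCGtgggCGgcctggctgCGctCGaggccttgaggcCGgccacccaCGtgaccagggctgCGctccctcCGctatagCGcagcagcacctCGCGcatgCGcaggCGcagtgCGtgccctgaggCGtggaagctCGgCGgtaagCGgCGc

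All 6 windows were rich in CpG. They held 28 CpGs for Dazl, 38 for Ddx4, 21 for Sycp1, 24 for Hormad1, 24 for Mael and 29 for Stk31, against a median of 7 over the 32841 promoters of the table. The lowest of the 6, Sycp1, had more than 75.2% of all promoters, and Ddx4 more than 95%. The ratio of observed to expected CpGs ran from 0.713 for Hormad1 to 0.978 for Ddx4, with a median of 0.384 over all promoters.

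**Figure D1:**
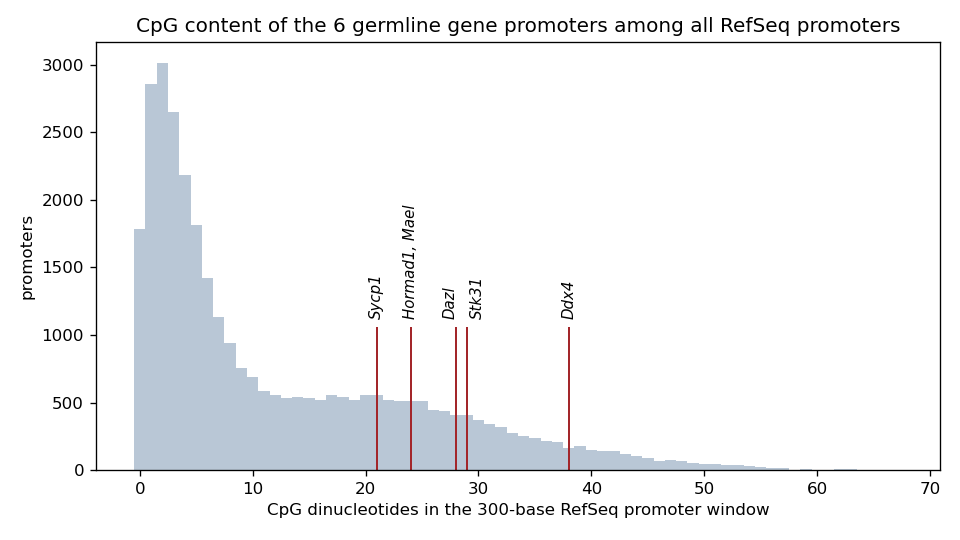
Number of promoters (vertical axis) by the count of CpG dinucleotides in the 300-base RefSeq window (horizontal axis), over 32841 promoters, with red lines for the 6 germline genes. The 6 lie between 21 and 38 CpGs, to the right of the median of 7.

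The letters CACGTG, which read the same on both strands, were present in 5 of the 6 windows, and in 7.15% of all promoters. They began 29 bases upstream of the start in Ddx4, 94 in Sycp1, 57 and 20 in Hormad1, 223 in Mael and 55 in Stk31, and were not in the window of Dazl. Every such match holds a CpG at its centre. GCGGGA, searched on both strands as a core of E2F sites, was in 4 of the 6 windows (Ddx4, Sycp1, Hormad1 and Mael) and in 20% of all. TATAAA, a core of the TATA box and also searched on both strands, was found in 1 window, that of Stk31, where it began 164 bases upstream of the start, and in 13.6% of all promoters. None of these matches overlapped another. CACGTG and GCGGGA each hold a CpG, and their shares among promoters of like CpG content were not counted. The shares over all promoters are therefore not a like background for these CpG-rich windows. These are matches of letters in a 300-base window, and no binding was measured on these arrays.

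Bound DNA exceeded the array's median probe in all 6 regions, although that upstream of Ddx4 fell below zero when the mode of each array, which lay 0.64 to 0.81 above the median, was taken as the zero. Each value is the log2 of bound over input signal, measured from that median and averaged over the probes of a region, and errors are SDs over the 3 arrays. By limma's test across all regions, with Benjamini-Hochberg adjusted p under 0.05, 6 of 6 germline regions were higher, against 27.9% of the 28880 regions (38.1% were lower). The median of the 6 region means was 1.72, whereas over all regions the median was -0.11 and the 95th percentile 1.30. The regions of Sycp1, Stk31, Dazl and Mael had means above that percentile, Hormad1, at 1.32, was just above it, and the region upstream of Ddx4 was well below it. A ratio is not a methylation percentage, since a fragment with more methylated CpGs is captured more readily, and these windows are rich in CpG.

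**Figure D2:**
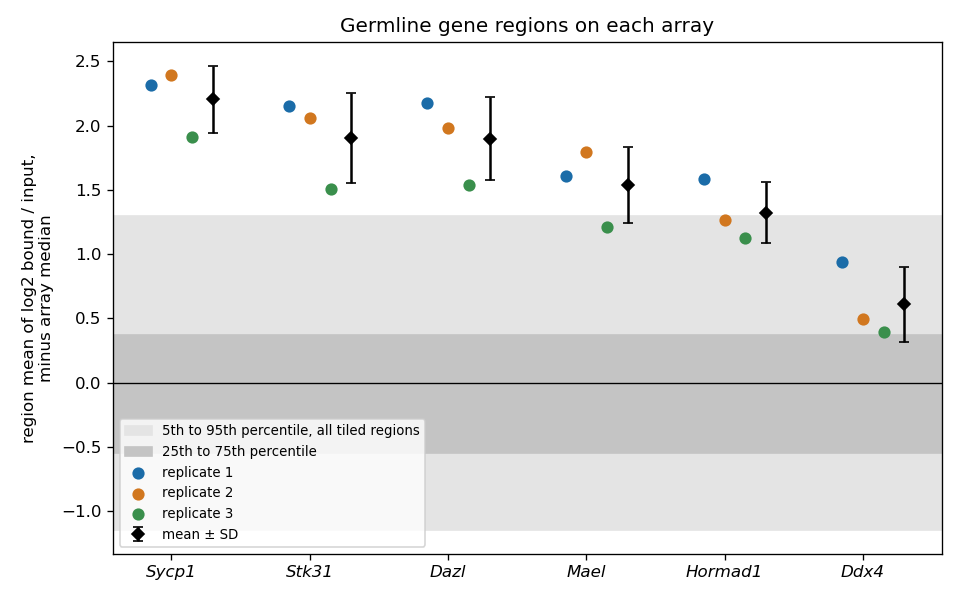
Region mean of the log2 ratio of bound to input DNA, minus the array median (vertical axis), for each of the 6 genes, with 1 point per array and a diamond with a bar for the mean ± SD of the 3 arrays. Grey bands give the 5th to 95th and the 25th to 75th percentile over all 28880 tiled regions; every array of Sycp1, Stk31 and Dazl lies above the wider band, and every array of the region upstream of Ddx4 inside it.

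Dazl encodes an RNA-binding protein needed for germ cell development. Its region, chr17:50432101-50434035, held 25 probes over 1935 bp, and its values were 2.18, 1.98 and 1.54 on replicates 1 to 3. No array came near the array median of 0. The mean was 1.90 ± 0.33 (n = 3, 95% interval 1.60 to 2.20), which is 3.73-fold above the median probe (limma adjusted p = 5.46e-07), and 98.7% of all regions were lower. Of its probes, 22 were higher than the median and none was lower, and 70 of 75 bound measurements were well above background.

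Enrichment at Dazl was highest around the given start and fell off on both sides. The 5 probes at most 200 bp from the midpoint averaged 3.21 ± 0.35 and the 12 probes more than 500 bp from it 1.07 ± 0.27. The centre exceeded the edges by 1.91, 2.44 and 2.06 on the 3 arrays (mean 2.14 ± 0.27, limma adjusted p = 5.2e-05), and it ranked 159 by this excess of the centre among the 21386 regions with both parts. The highest probe, chr17:50433053-50433097, was centred 75 bp upstream of the given start and reached 4.11, 4.01 and 3.75 (mean 3.96 ± 0.19, 15.5-fold). Few probes of the array were as high: 55 of the 409559 tested, itself included. The probe 618 bp downstream stood out at -0.39 ± 1.21, and its bound signal was above background on no array.

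Mael encodes a protein of the piRNA pathway, which silences transposable elements in germ cells. Its region, chr1:168168656-168169989, held 15 probes and stood at 1.61, 1.79 and 1.21, all above the median. The mean was 1.54 ± 0.30 (n = 3, 95% interval 1.24 to 1.83, limma adjusted p = 1.85e-06), or 2.90-fold. Of the 15 probes 11 were higher and none was lower. The other 4 included 2 probes at which neither channel was above background on any array.

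The highest probes of Mael lay just upstream of the given start. Those centred 73, 144 and 220 bp upstream were at 2.66 ± 0.17, 3.13 ± 0.43 and 2.74 ± 0.11. Of the 5 probes downstream of the start, those at 28, 80 and 244 bp did not pass the test (0.38 ± 0.41, 0.68 ± 0.50 and 1.06 ± 1.54, the last with neither channel above background), whereas those at 185 and 322 bp were higher than the median, at 1.00 ± 0.066 and 1.71 ± 0.36 (limma adjusted p = 0.017 and 0.0061). Input was above background on only 1 of 3 arrays at 185 bp and 2 of 3 at 322 bp. Bound signal was so on 2 and 3 arrays, so both ratios rest partly on signals not above background. The centre of the region exceeded its edges by 0.89 ± 0.24 (limma adjusted p = 0.009), with 0.81, 0.70 and 1.16 on the 3 arrays. This call was lost with loess normalization (0.50, adjusted p = 0.13) and without replicate 3 (0.76, adjusted p = 0.07).

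Stk31 encodes a kinase-like protein with a Tudor domain that is found in germ cells. Its region, chr6:49345006-49345780, was the shortest, with 10 probes over 775 bp, all downstream of the given start. The values were 2.16, 2.06 and 1.51, and the mean of 1.91 ± 0.35 (n = 3, 95% interval 1.60 to 2.22, limma adjusted p = 6.16e-07) was 3.75-fold above the median. Of the probes 8 were higher and none was lower.

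Enrichment at Stk31 was uneven. The last 2 probes of the region, centred 686 and 758 bp downstream of the given start, were at 3.96 ± 0.28 and 3.83 ± 0.26, and no probe followed them in the region. At the probe 686 bp downstream the arrays gave 4.25, 3.94 and 3.69. Only 56 of 409559 probes were as high, itself included. The 3 probes nearest to the given start were dim in input, with bound signal above background on 1, 0 and 1 of the 3 arrays, and their values of 1.21 ± 0.66, 0.49 ± 1.05 and 0.57 ± 1.41 rest largely on surrogate signals.

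**Figure D3:**
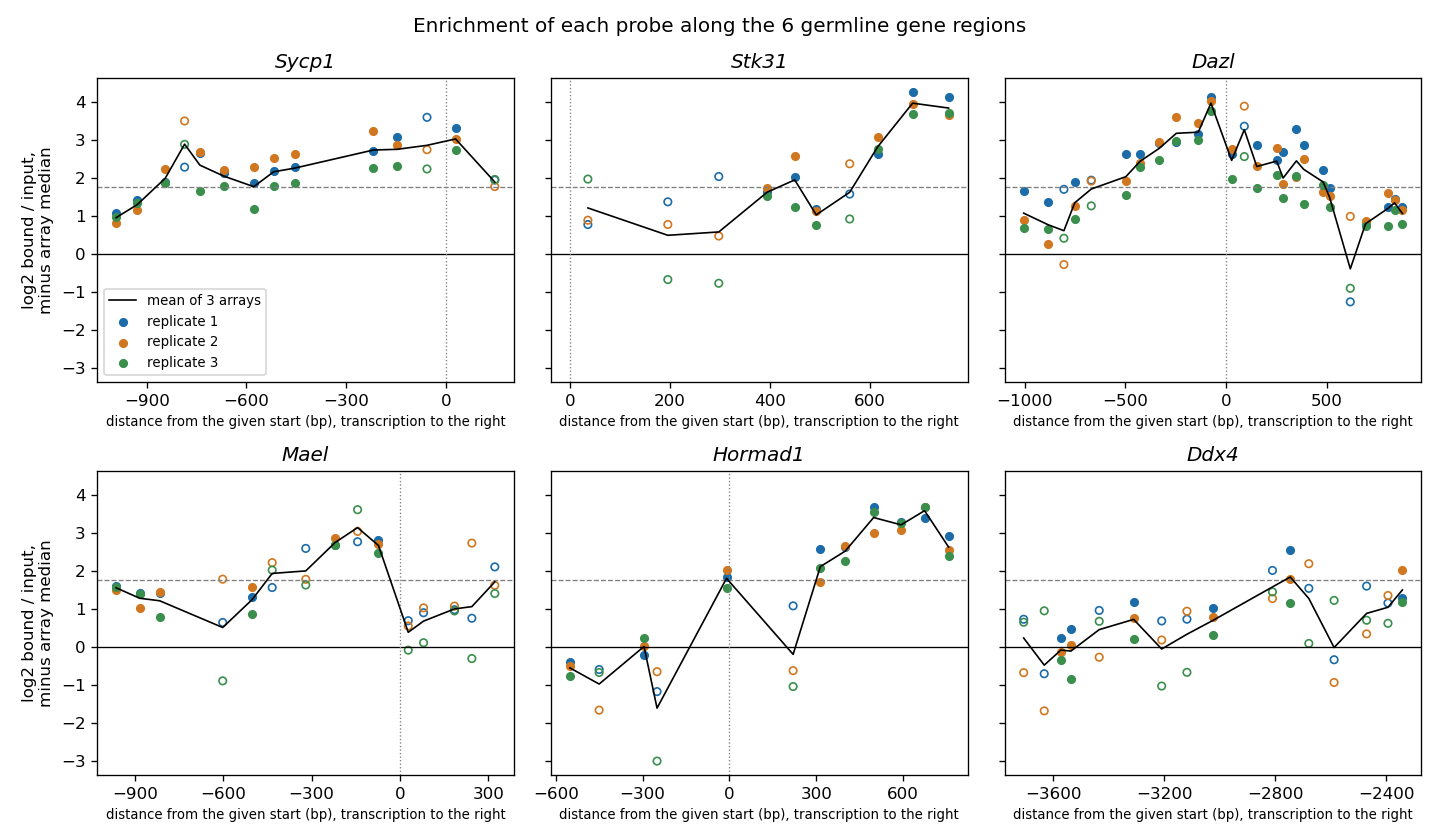
Log2 ratio of bound to input DNA, minus the array median (vertical axis), at each probe against its distance in bp from the given start, in the direction of transcription (horizontal axis), for the 6 germline genes. Points are arrays, the line is their mean, open points are probes with a channel that was not above background on some array, and the dashed line is the 95th percentile of all probes; Dazl peaks near its start with 3.96, and the probes of Hormad1 run from -1.61 upstream to 3.58 downstream.

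Sycp1 encodes a protein of the synaptonemal complex, which holds paired chromosomes together in meiosis. Its region, chr3:102739831-102741021, had the highest mean of the 6 with these settings, at 2.31, 2.40 and 1.91 on the arrays. The mean was 2.21 ± 0.26 (n = 3, 95% interval 1.92 to 2.49, limma adjusted p = 1.39e-07), which is 4.61-fold above the median, and it ranked 203 from the top of 28880 regions. Its probes spanned 2.07 between the lowest and the highest, the smallest span of the 6. All 14 were higher than the median, from 0.95 ± 0.14 to 3.02 ± 0.30, and 41 of 42 bound measurements were above background. Input was above background in 36 of 42, and both channels were so on every array at 11 of the 14 probes. At the probe 147 bp downstream of the given start (1.89 ± 0.10) input was above background on 0 of 3 arrays.

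The highest probe of Sycp1 was centred 29 bp downstream of the given start (3.02 ± 0.30). Upstream of the start the values did not run in one direction: they were 2.85 at 57 bp, 1.76 at 578 bp and 2.88 at 786 bp, the second-highest probe of the region, whose input was above background on 1 of 3 arrays. The last 2 probes, centred 928 and 992 bp upstream, were at 1.30 and 0.95. The side of the Sycp1 region upstream of its midpoint averaged 1.96 ± 0.26 and the side downstream of it 2.65 ± 0.32, a difference of -0.68 ± 0.23 (limma adjusted p = 0.016), which did not pass the test without replicate 1 (-0.55, adjusted p = 0.061) or with the series matrix values (-0.41, adjusted p = 0.11). The centre was above the edges by 0.68 ± 0.52 (limma adjusted p = 0.049), and this call was lost without replicate 1 (0.71, adjusted p = 0.075) and without replicate 2 (0.40, adjusted p = 0.36), and the sign turned with loess normalization (-0.37, adjusted p = 0.24).

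Hormad1 encodes a protein of meiotic chromosome axes. Its region, chr3:95362425-95363781, held 12 probes and stood at 1.58, 1.27 and 1.12, with a mean of 1.32 ± 0.23 (n = 3, 95% interval 1.04 to 1.60, limma adjusted p = 3.64e-06). Its probes differed widely. Of them 7 were higher and 2 lower, the only lower calls among the 92 germline probes, and 3 did not pass the test.

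At Hormad1 the 4 probes centred 250 to 551 bp upstream of the given start were at -1.61 to 0.0083, whereas the 6 probes from 314 to 757 bp downstream were at 2.11 to 3.58. Between them the values had no steady order: the probe 10 bp upstream was higher than the median at 1.80 ± 0.24 (limma adjusted p = 0.0048), and the probe 220 bp downstream, with each channel above background on 1 of 3 arrays, was at -0.20 ± 1.12 and did not pass. The highest, 674 bp downstream, gave 3.38, 3.67 and 3.68. Because the given start is rounded, on which side of the true start of Hormad1 the nearer probes lie was not settled. The side upstream of the region's midpoint, which includes the probe 10 bp upstream of the start, averaged -0.27 ± 0.23 and the downstream side 2.46 ± 0.28, and on each of the 3 arrays the downstream mean was the higher. Their difference was -2.89, -2.45 and -2.84 on the 3 arrays (mean -2.73 ± 0.24, limma adjusted p = 4.27e-05), and it ranked 84 by size, in either direction, among the 27761 regions with both sides. Bound DNA at the lower called probes, 250 and 450 bp upstream, was above background on 1 and 0 of 3 arrays, so that their ratios of -1.61 ± 1.23 and -0.98 ± 0.60 are in large part upper limits.

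Differences between the probes upstream and downstream of a region's midpoint, here its sides, were common on the array: 50.7% of the 27761 regions passed the test in either direction, and 4 of the 6 germline regions did (Ddx4, Sycp1, Hormad1 and Stk31). In those 4 the downstream side was the higher one. The share of all regions with a higher downstream side was not counted, so this direction cannot be read as a trait of the germline regions. Over probes above background in both channels the difference was also called at Hormad1 (-2.49), the region upstream of Ddx4 (-1.17) and Sycp1 (-0.98). Probes with low bound signal are left out by this filter. With it the sides differed in 69.5% of all regions that could be tested and in 5 of 5 germline regions, so such calls were common. The call at Stk31 does not compare measured levels: its upstream side, at 0.76 ± 0.61 against 2.40 ± 0.29 downstream, consisted of the 3 dim probes nearest to the given start, none of which is left once probes not above background are taken out, so that the difference could not be tested over measured probes. The difference did not pass the test at Dazl ( 0.35, 95% interval -0.10 to 0.79) and Mael (-0.42, 95% interval -0.84 to 0.0056). At Mael the downstream side was called higher with 4 alternatives, with -1.38 (adjusted p = 9.18e-06) over probes above background in both channels, and the sign turned with the series matrix values (0.22, adjusted p = 0.38). At Dazl the upstream side was called higher with 3 alternatives, the largest value being 0.50 over probes with input above background (adjusted p = 0.031).

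A higher centre was rarer. Of the 21386 regions with both parts, 17% had a centre above the edges and 32.4% a centre below them, whereas 3 of the 5 germline regions that could be tested (Dazl, Mael and Sycp1) had a higher centre and none a lower one. The count is not stable: it was 1 of 5 with loess (Dazl, against 15.7% of all regions), 2 of 5 without replicate 1, 2 or 3 (against 15.3%, 10.6% and 13.4%), and 2 of 5 with probes joined at most 1000 bp apart. Dazl kept its call in each of these. The Stk31 region was too short for this comparison. For Hormad1 (-0.37, 95% interval -0.94 to 0.21) and the region upstream of Ddx4 (-0.10, -0.72 to 0.52) the difference did not pass the test.

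**Figure D4:**
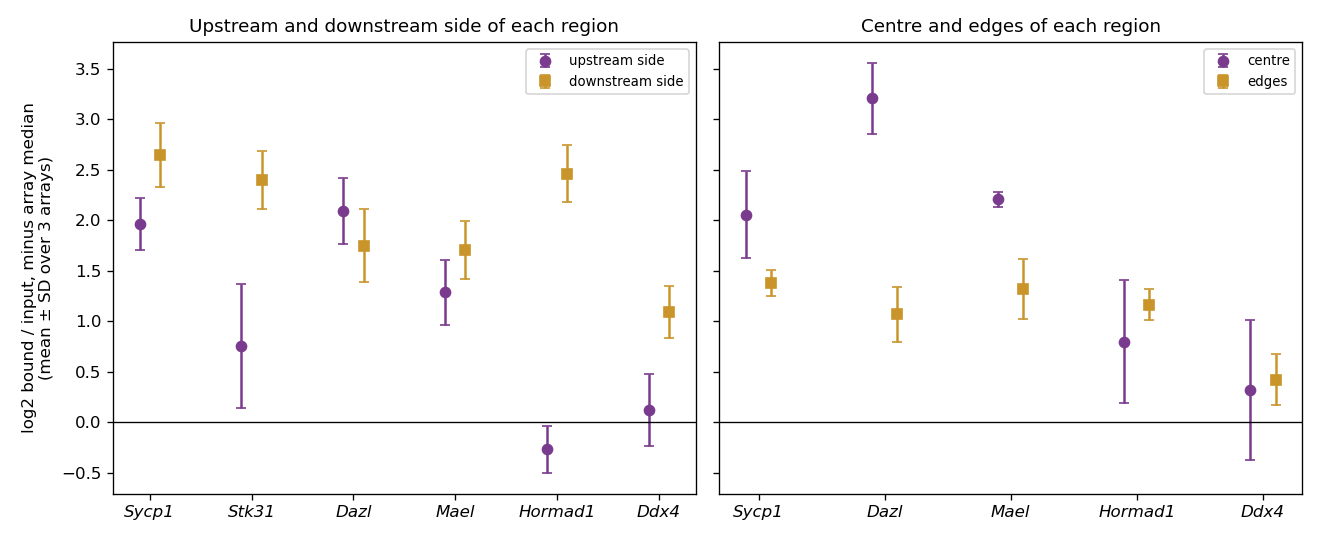
Mean log2 ratio of bound to input DNA, minus the array median (vertical axis, mean ± SD over 3 arrays) on the upstream and downstream side of each germline region (left) and in its centre and edges (right). The sides are farthest apart at Hormad1, -0.27 against 2.46, the upstream side of Stk31 holds only dim probes, and the centre stands farthest above the edges at Dazl, 3.21 against 1.07.

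Ddx4, also called Vasa, encodes an RNA helicase that marks germ cells. The tiled region upstream of it, chr13:113442320-113443735, was the least enriched of the 6, with 0.94, 0.50 and 0.39 on the arrays. The mean was 0.61 ± 0.29 (n = 3, 95% interval 0.32 to 0.90, limma adjusted p = 0.00165), or 1.53-fold, and 82.8% of regions were lower. The call depends on the zero point: with the mode as zero the value was -0.11 (adjusted p = 0.48), whereas the other 5 regions stayed higher with that zero, from 0.61 for Hormad1 to 1.49 for Sycp1. Of its 16 probes 4 were higher and 12 did not pass the test, and 32 of 48 bound measurements were above background.

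Within this region, the side of the midpoint nearer to the given start of Ddx4 carried more bound DNA. It averaged 1.10 ± 0.26 against 0.12 ± 0.35 on the far side, a difference of -0.97 ± 0.21 for far minus near (limma adjusted p = 0.00256). The probe nearest to the given start, centred 2342 bp upstream, was at 1.49 ± 0.46, and the highest, 2746 bp upstream, at 1.83 ± 0.70. None reached the level of 2 that 12 probes of Dazl and 9 of Sycp1 passed.

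Ddx4 and Mael had a tiled neighbour within 15 kb, and both members were higher than it, as were 30.5% of the 14200 regions with a neighbour. The neighbour of Ddx4, chr13:113449755-113451200, on the side of Slc38a9 in RefSeq's gene order, was at -1.16, -0.53 and -0.49, and its bound signal exceeded background in 14 of 36 measurements. The region upstream of Ddx4 exceeded it by 2.11, 1.02 and 0.88 (mean 1.34 ± 0.67, limma adjusted p = 0.000474). The neighbour of Mael, chr1:168183049-168184532, 14 kb upstream and on the side of Ildr2, was itself above the median at 1.05 ± 0.17. Mael exceeded it by 0.46, 0.94 and 0.056 (mean 0.49 ± 0.44, limma adjusted p = 0.039), a call that did not hold without replicate 1 (0.50, adjusted p = 0.055) or replicate 2 (0.26, adjusted p = 0.35).

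The other 4 members stood alone within 15 kb. The next tiled region was at -0.13 ± 0.17 for Sycp1 (27.9 kb upstream), 0.064 ± 0.087 for Stk31 (26.9 kb upstream), 0.86 ± 0.33 for Dazl (54.8 kb downstream) and -1.26 ± 0.10 for Hormad1 (28.7 kb downstream). With neighbours taken up to 50 kb away, Sycp1 exceeded them by 2.34 (limma adjusted p = 1.07e-06), Stk31 by 1.75 (adjusted p = 1.2e-05) and Hormad1 by 1.74 (adjusted p = 1.7e-06). Each was set against the mean of all tiled regions within that distance, not only the next one. The share of all regions called at 50 kb was not counted.

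The order of the members was Sycp1, Stk31, Dazl, Mael, Hormad1 and the region upstream of Ddx4, and arrays 1 and 3 differed from it only in that Dazl exceeded Stk31. Stk31 and Dazl did not differ beyond their spread (0.0074 ± 0.060, with Stk31 higher on 1 of 3 arrays), nor did Mael and Hormad1 (0.21 ± 0.27, although Mael was higher on 3 of 3). Sycp1 was above Stk31 by 0.30 ± 0.13, Dazl above Mael by 0.36 ± 0.19 and Hormad1 above the region upstream of Ddx4 by 0.71 ± 0.07, each on 3 of 3 arrays. These differences between single regions were given as a description and no test of them was run; a two-sided exact sign-flip permutation over 3 arrays has no p below 0.25. The order depends on the settings. Over probes above background in both channels Stk31 was above Sycp1 (2.08 against 1.66). Hormad1 (1.62), Dazl (1.56), Mael (1.33) and the region upstream of Ddx4 (0.30) followed. Stk31 was also above Sycp1 over probes with input above background (2.53 against 2.12). The values with both channels were measured from the median of the probes kept, those with input alone from the median of all probes. Their sizes can therefore not be set against each other. Hormad1 came second, at 1.95 after Sycp1 at 2.21, with medians over probes, and Dazl came second with loess, with the series matrix values and without replicate 2. The region upstream of Ddx4 was lowest with each alternative. The sizes also depend on the background correction: with normexp the values were 1.13 for Sycp1, 1.19 for Stk31, 1.04 for Dazl, 0.79 for Mael, 0.87 for Hormad1 and 0.25 for the region upstream of Ddx4, each still higher than the median (limma adjusted p of 5.42e-05 to 0.012).

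Over single probes, 66 of the 92 germline probes were higher than the median and 2 were lower, against 22.4% and 23.6% of all 409559 probes tested. Bound and input DNA were above background on every array at 59 of the 92, and 5 had neither channel above background on any array, where the ratio is not a measurement. Probes of a region share fragments and are not replicates.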

How the data were processed

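DNA methylation was measured on 3 two-colour Agilent arrays. Per the file headers, the scanner files were made with Feature Extraction 10.7.3.1 on a custom mm9 (NCBI37) design of 420288 spots, 4474 of them controls, and the processed intensities are background-subtracted, detrended and dye-normalised, with surrogate values near background. The value table the authors deposited holds log2 values in the direction of bound over input (r of 0.999 or more with background-subtracted spot medians), with column medians of -0.97, -0.97 and -0.97; its normalisation was not given in the sources used here.

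From the processed signals the log2 ratio of bound over input was taken, outlier-flagged spots were left out, spots of a probe were averaged, and each array was centred on its median probe, with no loess or quantile step. Medians before centring were -0.19, -0.19 and -0.09. Input was well above background at 69% to 83.3% of probes and bound DNA at 47.3% to 65.9%. No counts exist, and the number of arrays limits the precision. Regions, probes, the centre (within 200 bp of the midpoint) minus the edges (over 500 bp from it), the probes on either side of the midpoint, and regions minus neighbours within 15 kb were each tested over the whole array with limma 3.58.1 in R 4.3.3 (1-group fit against 0, Benjamini-Hochberg threshold 0.05). On simulated data for the regions fit, run on 28880 regions, 0% of log2 shifts of 0.5, 64% of shifts of 1 and 92% of shifts of 2 were recovered. Those shares do not carry over to these arrays, where 27.9% of regions were called higher although the 75th percentile of region means was 0.37. Normexp used spot medians, since spot means were not in the files used. Strands, gene order and promoter sequences came from RefSeq (GRCm38.p6), and no position was converted between builds.

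All 6 members were named whatever their values. The members, lists and tests were chosen with earlier results of these data known, and the comparison of sides of the midpoint was added after the values were seen. Alternatives tried were leaving out each replicate, normexp, loess, the series matrix, probes above background, kept outliers, the mode as zero, other joining distances, medians over probes, neighbours within 50 kb and array weights.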

Additional observations from a re-analysis of the deposited data

How the results depend on the processing

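The regions of Dazl, Sycp1, Hormad1, Mael and Stk31 stayed above the zero used, past the threshold, in each of the 14 alternatives run. The region upstream of Ddx4 did so in 13, with -0.11 when the mode was the zero. The zero was the array median, except with the mode and with both channels above background. With both channels it was the median of the probes kept. Over all regions the mode gave 2497 higher and 22214 lower. Germline probes called higher numbered 50 to 68 over 10 alternatives. Those called lower numbered 0 to 2 with 1 replicate left out, 1 with loess, 1 with the series matrix, 1 with input above background, and 5 with the mode. The share of all probes called was not counted with these alternatives, so these probe counts cannot be set against it. Mael minus its neighbour (0.49) lost its call with loess (0.25, adjusted p = 0.23), with probes joined at most 300 bp apart (0.49, adjusted p = 0.054) and with medians over probes (0.25, adjusted p = 0.31), and ranged from 0.26 to 0.70 with 1 replicate left out. Centre minus edges ranged, with 1 replicate left out, from 0.40 to 0.93 for Sycp1, from 0.76 to 0.98 for Mael and from -0.38 to 0.29 for Ddx4. It was 0.50 for Mael with loess, -0.37 for Sycp1 with loess, 0.68 for Sycp1 with probes joined at most 1000 bp apart (adjusted p = 0.051), 0.0010 for Ddx4 with normexp and 0.035 for Hormad1 with normexp. Upstream minus downstream was 0.35 (normexp) and 0.50 (both channels, and input alone, above background) for Dazl, all now called. For Mael it was -0.27 (normexp), -0.70 (loess), -1.38 (both channels above background) and -0.61 (input above background), all now called, and 0.22 with the series matrix. For Sycp1 it was -0.41 with the series matrix and -0.77 to -0.55 with 1 replicate left out. Region values were smaller with normexp throughout. Over probes above background, the sides of Stk31 and the centre of Hormad1 gave no value, nor did the centre of Ddx4 with both channels. The causes were not tested. Dim probes are a limit for Ddx4, Stk31, Mael and Hormad1, where bound signal exceeded background in 32 of 48, 23 of 30, 35 of 45 and 29 of 36 measurements. No paired analysis was possible because there was 1 group.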

Other observations

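Replicate 3 gave the lowest value of the 3 arrays in 6 of 6 germline regions. The share of all regions that were lowest on replicate 3 was not counted, so this cannot be read as a trait of the germline regions. Pearson's r between arrays over the 92 germline probes was 0.842 (replicates 1 and 2), 0.834 (1 and 3) and 0.781 (2 and 3), and over all 409559 probes it was 0.753, 0.728 and 0.772. These are correlations over positions that share arrays, fragments and base composition, and are given as a description.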
